A study of Mus musculus with 6 samples.

Results

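The fibrillar collagens described here are 7 genes, Col1a1, Col1a2, Col3a1, Col5a1, Col5a2, Col5a3 and Col11a1, taken by symbol from 6 single-cell count tables with 30828 to 32285 gene rows each. All 7 symbols were present in all 6 tables. The cells came from mice that carry EGFP at the Pdgfra locus (Pdgfra-GFP, male, 10 to 14 weeks of age), so that sorted GFP+ cells are enriched for fibroblasts (FBs) that express Pdgfra, a growth factor receptor of alveolar FBs. For the single-dose experiment mice received 50 µl PBS or bleomycin by oropharyngeal aspiration and GFP+ lung cells were taken at day 14. The labels disagree on this dose: the treatment field has 4 U/kg and the protocol 2 U/kg. For the repetitive experiment, 3 weekly doses of PBS or of 1, 1 and 0.5 U/kg bleomycin were given, and cells were taken 14 days after the last. Organoids combined tomato+ type 2 alveolar epithelial cells (AEC2) of tamoxifen-induced SpcCreER donors with GFP+ FBs of mice given PBS (normal) or 2 U/kg bleomycin (fibrogenic) and were grown for 2 weeks in Matrigel. There was 1 library for each of these 6 conditions, and each pooled FBs of 3 mice. The spread between mice is therefore unknown, no test between conditions was possible, and every interval given below covers counting error only.

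Fibrillar collagens are secreted as procollagens whose chains wind into a long triple helix. Enzymes then cleave the end pieces, and the molecules assemble into the cross-banded fibrils that give tissue its tensile strength. Collagen I is built from the chains of Col1a1 and Col1a2 and collagen III from that of Col3a1. Both are the bulk fibril formers of the lung interstitium, and their accumulation defines fibrotic scar. Collagen V, with the chains of Col5a1, Col5a2 and Col5a3, is a minor component that nucleates fibrils and limits their diameter. Collagen XI, which holds the chain of Col11a1, plays the same part in cartilage and is scarce in normal lung.

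In GRCm38 the genes lie at chr11:94936224-94953042 (Col1a1), chr6:4504814-4541544 (Col1a2), chr1:45311538-45349706 (Col3a1), chr2:27886425-28039514 (Col5a1), chr1:45374321-45503282 (Col5a2), chr9:20770050-20815067 (Col5a3) and chr3:114030540-114220718 (Col11a1). Col3a1 and Col5a2 are close neighbours on opposite strands of chromosome 1. GENCODE also lists 2810430I11Rik and Gm13372 inside Col5a1 on the opposite strand. Where these antisense genes had entries, they held 0 to 240 UMIs in a library against at least 5684 for Col5a1. A further gene, Gm47302, overlaps Col3a1 on the same strand and had no entry, so reads that both could claim cannot be told apart.

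RefSeq promoter windows (GRCm38.p6) matched 5 of the 7 genes. Most of the 7 genes were higher after bleomycin in both lung experiments (below), while Col11a1 rested on few UMIs. For 4 of the 5 matched genes the stretch upstream of the start is printed, cut to untranscribed bases. Capitals mark 3 short promoter motifs on either strand: the CCAAT box, the GC box (GGGCGG) and the TATA box (TATAAA).
Col3a1: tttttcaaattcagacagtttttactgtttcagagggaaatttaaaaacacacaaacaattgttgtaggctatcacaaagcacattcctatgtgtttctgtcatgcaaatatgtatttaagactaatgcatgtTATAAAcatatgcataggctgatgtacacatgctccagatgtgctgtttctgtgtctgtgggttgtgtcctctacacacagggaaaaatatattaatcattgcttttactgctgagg
Col5a1: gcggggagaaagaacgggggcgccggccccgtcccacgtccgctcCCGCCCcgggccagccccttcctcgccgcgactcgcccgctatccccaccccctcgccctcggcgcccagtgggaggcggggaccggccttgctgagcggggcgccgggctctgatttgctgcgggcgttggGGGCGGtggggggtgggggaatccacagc
Col5a3: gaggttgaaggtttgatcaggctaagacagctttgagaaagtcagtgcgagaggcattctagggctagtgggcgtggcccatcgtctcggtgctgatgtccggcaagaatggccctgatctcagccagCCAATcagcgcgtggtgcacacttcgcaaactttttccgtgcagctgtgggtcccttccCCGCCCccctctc
Col11a1: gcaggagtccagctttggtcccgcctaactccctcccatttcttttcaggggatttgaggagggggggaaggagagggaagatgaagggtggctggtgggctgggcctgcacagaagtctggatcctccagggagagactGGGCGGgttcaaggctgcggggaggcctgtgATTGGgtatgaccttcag
The windows printed were chr1:45311288-45311537 for Col3a1, chr2:27886175-27886380 for Col5a1, chr9:20815118-20815317 (minus strand) for Col5a3 and chr3:114030290-114030478 for Col11a1. They differed in base composition, from 35.2% G and C upstream of Col3a1 to 77.7% upstream of Col5a1. Of the stretches printed, that of Col3a1 alone held TATAAA (13.6% of windows), 117 bases before the start, and it held neither CCAAT nor GGGCGG. The other 3 stretches held GGGCGG, which was also found in 35.7% of 32851 mouse promoter windows of 300 bases. CCAAT, found in 37.4% of windows, stood 122 bases before the Col5a3 start and, on the reverse strand, 79 bases before that of Col11a1. The Col1a2 window, which overlaps transcribed bases and is not printed, held both motifs. TGANTCA, the AP-1 motif (7.81% of windows), was in none of the 5. CAGAC, the SMAD-binding motif (49.6% of windows), was in 4 of the 5 windows, those of Col1a2, Col3a1, Col5a1 and Col11a1, and is not marked in the sequences. These are matches of letters and not shown to be binding sites. Promoters of Col1a1 and Col5a2 were not used here.

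Library depth ranged from 7201081 UMIs in 1060 barcodes (single-dose PBS) to 238618743 UMIs in 8894 barcodes (fibrogenic organoids). Pairs of libraries shared 0 to 30 barcodes. Barcodes under 2000 UMIs were 5.31% to 15.9% of 4 libraries, but 43.7% of the repetitive bleomycin and 33.5% of the fibrogenic organoid library, and these were left out. FBs were gated on marker UMIs that included no fibrillar collagen, which gave 836 and 781 cells (single-dose PBS and bleomycin), 5128 and 4990 (repetitive) and 2085 and 3131 (normal and fibrogenic organoids). Pdgfra stood at 520 and 286 CPM (UMIs of a gene per 1000000 UMIs of the cells) in single-dose FBs after PBS and bleomycin. It stood at 586 and 371 CPM in the repetitive ones and at 76.1 and 70.8 CPM in the organoid FBs. Summed CPM of 7 pan-leukocyte markers in the FBs were 13.1 (PBS) and 43.0 (bleomycin) in the single-dose experiment and 4.81 and 14.3 in the repetitive one. Myeloid markers summed to 46.0 and 99.9, then 25.5 and 42.7 CPM. Plasma cell markers summed to 1.70 and 1.26, then 1.19 and 25.3 CPM (the last mostly Jchain). General epithelial markers summed to at most 7.57 CPM in the lung FBs, AEC2 markers to 92.8 to 109 CPM (mostly Sftpc) and AEC1 markers to 52.8 to 96.9 CPM (mostly Pdpn in 3 of the 4 groups). The 7 smooth muscle and mural markers (mostly Des) summed to 70.5 and 258 CPM in the single-dose FBs and to 48.1 and 106 CPM in the repetitive ones. Their part in the collagen values was not tested, other than by removing smooth muscle-like FBs as given below.

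After bleomycin, the collagen I and III transcripts of lung FBs stood 3.17 to 4.12 times as high as after PBS, in both experiments. In single-dose FBs, Col1a1 measured 861 CPM after PBS (95% interval 837 to 885) and 3104 CPM after bleomycin (3070 to 3138), a fold of 3.61 and a log2 ratio of 1.85. Its partner chain Col1a2 measured 1185 and 3822 CPM (log2 ratio 1.69). Col3a1, with the most UMIs of the 7 in all 4 lung FB groups, measured 1419 and 5322 CPM (log2 ratio 1.91). These intervals did not overlap between PBS and bleomycin, but they cover counting error only, and the share of all genes without overlap is not given. Log2 ratios were taken with 1 CPM added to each level, whereas their intervals are those of the plain ratio.

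Collagen V chains were scarcer and differed at least as much in the single-dose experiment. Col5a1, the chain common to collagen V molecules, measured 57.9 CPM (51.9 to 64.4) after PBS and 262 CPM (253 to 272) after bleomycin, with a log2 ratio of 2.16. Col5a2 measured 111 and 758 CPM, with a log2 ratio of 2.76 (2.66 to 2.89), or 6.84-fold. This was the highest ratio of the 6 members that passed the UMI filter, which Col11a1 did not. Of the genes tested, 98.9% had a lower ratio than Col5a2. Col5a3, a chain of more restricted expression, measured 11.5 and 47.4 CPM (log2 ratio 1.95, interval 1.67 to 2.42). Col11a1 had no UMI in the PBS FBs, which allows up to 0.509 CPM (3 UMIs), and 12 UMIs in 4 cells after bleomycin (1.17 CPM), so that its measured level was 2.29 times that floor. The counting interval of this ratio began at 0.67 on the log2 scale, and without cycling, smooth muscle-like and mesothelial-like FBs the log2 ratio with 1 CPM added was 0.40 in place of 1.11. It had too few UMIs for the gene filter of 20.

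All 6 members that passed the filter had a log2 ratio of 1 or more in the single-dose FBs, where 9.57% of the 12057 genes tested did. Their median over the 7 genes was 1.91, against 0.09 for all genes tested. In the repetitive experiment all 7 passed this limit against 5.72% of 17070 genes, but Col11a1 entered only through its bleomycin UMIs, and with 10 CPM added in place of 1 its log2 ratio was 0.31 and 6 of 7 passed. There the median was 1.75 (1.77 without Col11a1) against 0.10 for all genes. No member was lower by a log2 ratio of 1 in either, as 3.78% and 1.63% of genes were.

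**Figure D1:**
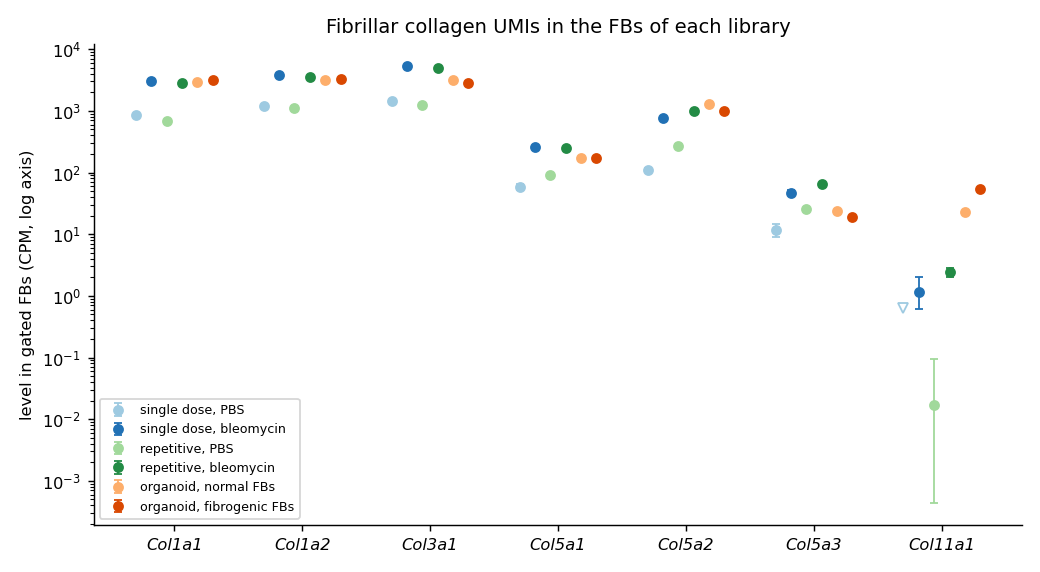
Level of each fibrillar collagen gene in the FBs of the 6 libraries, in CPM on a log axis, with 95% counting intervals as bars. The open triangle marks the upper limit for Col11a1 where it had no UMI. The bleomycin points lie above the PBS points for all genes in both lung experiments, while the 2 organoid points lie close together except for Col11a1 (23.2 and 54.9 CPM).

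The repetitive experiment gave similar values for collagens I and III, from an independent pair of libraries. Col1a1 measured 690 CPM after PBS and 2787 CPM after bleomycin (log2 ratio 2.01), Col1a2 measured 1125 and 3568 CPM (1.66), and Col3a1 measured 1223 and 5043 CPM (2.04). Collagen V started from a higher level after repetitive than after single-dose PBS. Col5a2 measured 268 CPM after repetitive PBS against 111 CPM after a single dose, and Col5a3 25.7 against 11.5 CPM. After bleomycin Col5a1 stood at 246 CPM, close to the 262 CPM after a single dose, while Col5a2 (989 against 758 CPM) and Col5a3 (65.7 against 47.4 CPM) stood higher. The log2 ratios of Col5a1, Col5a2 and Col5a3 were 1.40, 1.88 and 1.32 in the repetitive experiment. Whether the 2 experiments differed in these ratios was not tested, since each condition had 1 library and the tables were made with different gene annotations. Col11a1 had 1 UMI in 5128 PBS FBs and 133 UMIs in 4990 bleomycin FBs, a ratio of 140 with a counting interval of 4.63 to 12.45 on the log2 scale. After adding 1 CPM to each level the same log2 ratio was 1.75.

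**Figure D2:**
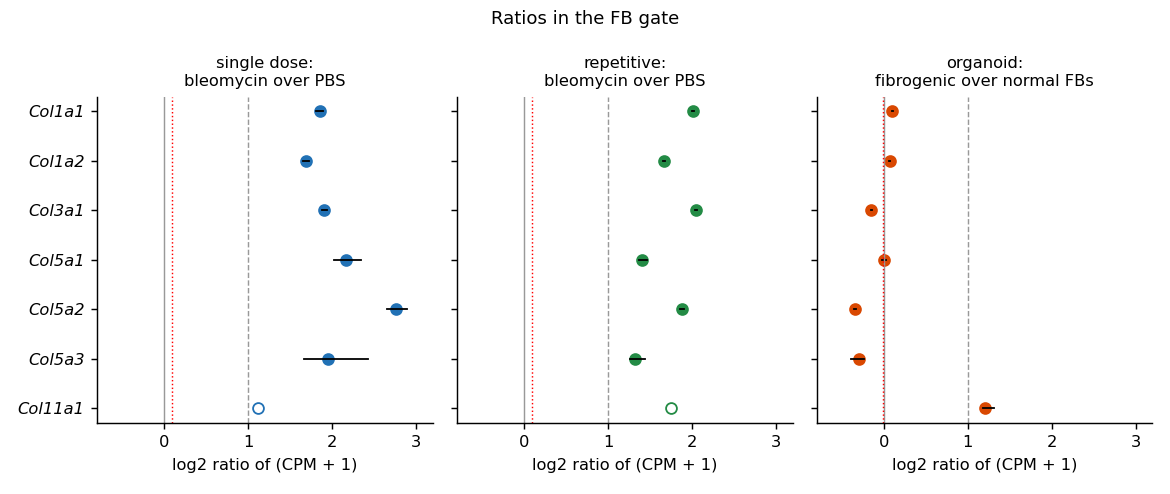
Log2 ratio of each gene between the FBs of paired libraries, in 3 panels (single-dose, repetitive, organoid), with counting intervals as bars. Open circles, drawn without an interval, mark Col11a1 where a group had under 20 UMIs, the red dotted line is the median of all genes tested and the dashed line a log2 ratio of 1. In the lung panels all points lie above 1, up to 2.76 for Col5a2, and in the organoid panel they lie between -0.34 and 0.10 except Col11a1 at 1.21.

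The difference was spread over most FBs. With each FB thinned to 2000 UMIs, the median number of fibrillar collagen UMIs per cell was 5 after PBS in both experiments, and 20 (single-dose) and 22 (repetitive) after bleomycin. The cell at the 10th percentile had 7 and 9 UMIs after bleomycin, above the PBS medians. The share of thinned FBs with at least 1 Col1a1 UMI was 75% and 92.1% (single-dose PBS and bleomycin) and 66.0% and 94.0% (repetitive). Without thinning these shares were 94.9%, 99.1%, 96.6% and 99.3%. For Col5a2 the thinned shares were 18.2% and 65.3%, then 37.2% and 77.3%. Col5a3 stayed a minority transcript, with 1.44% and 6.40%, then 4.31% and 9.62% of thinned FBs. In leukocytes of the same libraries, which should lack these genes, the thinned median was 0 collagen UMIs in 3 libraries and 2 in the single-dose bleomycin library, where 37 leukocytes held 839 CPM of the 7 genes together. FBs of that library held 13317 CPM, and those of single-dose PBS 3645 CPM.

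To see which FBs carried the transcripts, FBs were grouped by marker UMIs. Lipofibroblast-like cells (LipoFB-like, with Tcf21, Npnt and Inmt among their markers) are the alveolar FBs that neighbour AEC2s. MatrixFB-like cells (Pi16, Dpt, Clec3b) are adventitial FBs around vessels and airways. Myofibroblast-like cells (MyoFB-like, with Cthrc1, Spp1 and Postn) are the contractile, matrix-secreting FBs of injury. Sfrp1+ cells were set apart by Sfrp1, a secreted Wnt antagonist, alone. The remainder were called other FBs. MyoFB-like cells numbered 101 and 274 after bleomycin and 0 and 2 after PBS, so they were described after bleomycin only. Spp1 made up 93.5% and 85.8% of the marker UMIs behind that gate.

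MatrixFB-like cells carried more fibrillar collagen than LipoFB-like cells already after PBS. Col1a1 measured 1754 against 712 CPM in the single-dose and 1369 against 596 CPM in the repetitive PBS library, or 2.46 and 2.30 times as much. The log2 ratio of MatrixFB-like over LipoFB-like cells reached 1 for 5 of 6 members tested in the first (7.21% of all genes) and for 2 of 6 in the second (7.46%). Col1a2 differed most between these FB types, at 2766 against 924 CPM and at 2383 against 953 CPM. Col5a2 differed least, with log2 ratios of 0.76 and 0.47.

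Both FB types held higher collagen levels after bleomycin than after PBS. In LipoFB-like cells Col1a1 measured 712 and 1456 CPM (single-dose) and 596 and 1748 CPM (repetitive). The markers of this gate themselves summed to 14931 and 4649 CPM over all single-dose FBs and to 15468 and 8503 CPM over the repetitive ones, and whether gated cells were in the same state after PBS and bleomycin was not tested. Col5a2 had the highest single-dose ratio there, 5.36-fold, and Col3a1 the highest repetitive one, 3.79-fold. In all, 5 of 6 tested members had a log2 ratio of 1 or more in LipoFB-like cells in each experiment, beside 4.88% and 4.77% of genes. Col5a3 was the exception in both, at 9.56 and 13.2 CPM (log2 ratio 0.43, interval -0.24 to 1.15) and at 24.0 and 47.2 CPM (0.95, interval 0.85 to 1.09). In MatrixFB-like cells Col3a1 measured 2444 and 9148 CPM (single-dose) and 1961 and 6685 CPM (repetitive), its highest levels among these subsets in both bleomycin libraries. After bleomycin these cells held fewer UMIs each (medians 7593 and 5334.5) than Sfrp1+ cells (12613.5 and 13305). Counted per cell, their Col3a1 was lower than that of Sfrp1+ cells in both libraries. It came to 7901 UMIs in 103 cells against 18132 in 182 (single-dose), and 62221 in 1226 against 64465 in 719 (repetitive). In MatrixFB-like cells, 5 of 6 and 4 of 6 tested members reached a log2 ratio of 1, beside 6.03% and 2.73% of genes. Among other FBs, 2 of 6 and 3 of 6 did, beside 12.1% and 7.75%, with Col5a3 (6 and 91 UMIs) counted in the first only through its bleomycin UMIs.

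Sfrp1+ cells, 182 and 719 after bleomycin against 5 and 39 after PBS, held intermediate Col1a1 and high Col3a1 levels. In the single-dose bleomycin library their Col1a1 level was 3565 CPM and their Col3a1 level 7577 CPM, and 4 of 6 tested members were higher than in LipoFB-like cells by a log2 ratio of 1 (4.74% of genes). In the repetitive library the same levels were 2623 and 6285 CPM, and the ratios to LipoFB-like cells were 0.28 to 0.59 on the log2 scale, so that 0 of 6 reached 1 (1.14% of genes).

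**Figure D3:**
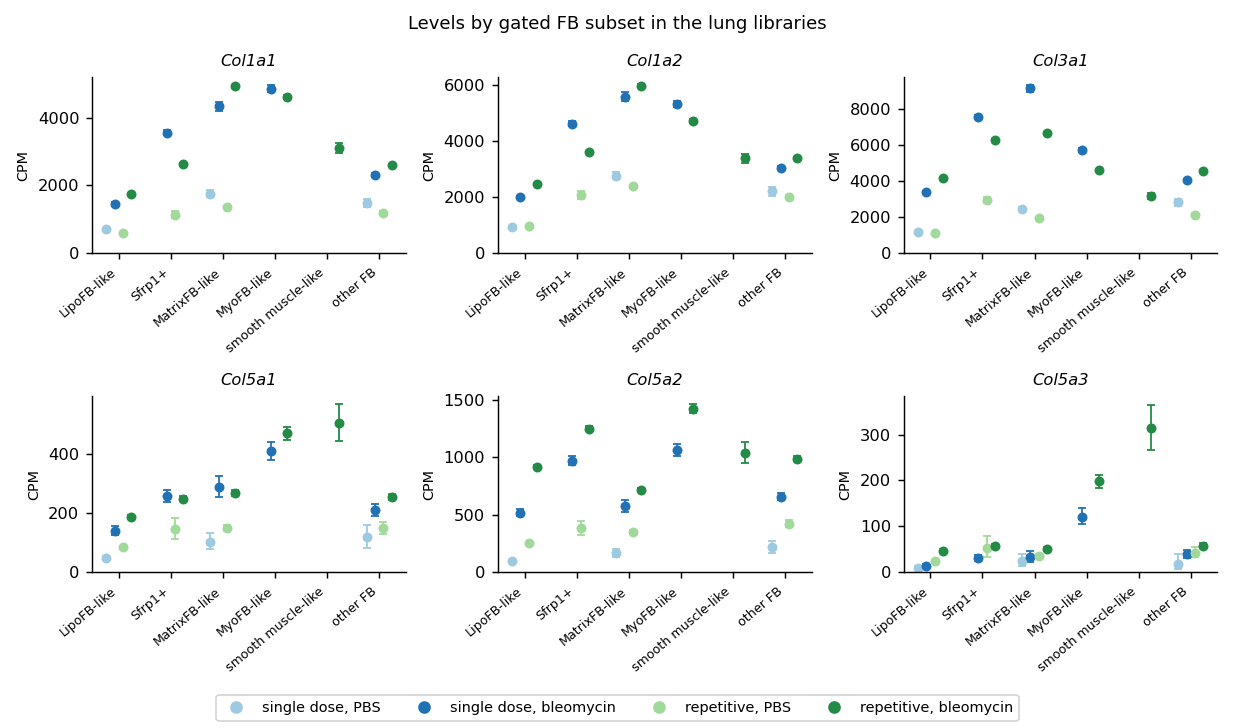
Levels of 6 members in CPM (linear axes from 0, a range per gene), by FB subset and lung library, for subsets of at least 20 cells, with 95% counting intervals as bars. LipoFB-like and MatrixFB-like cells lie higher after bleomycin than after PBS. For single-dose Col5a3 the log2 ratio was 0.43 in each, with intervals that include 0 (-0.24 to 1.15 and -0.52 to 1.49). For Col5a3 the MyoFB-like (121 and 198 CPM) and smooth muscle-like cells (313 CPM) stand above the other subsets, which is not so for Col3a1.

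MyoFB-like cells were not the highest for every fibrillar collagen. Against all other FBs of the same library, their Col1a1 level was 4864 against 2785 CPM (single-dose) and 4614 against 2648 CPM (repetitive), a log2 ratio of 0.80 in each. MatrixFB-like cells of the repetitive bleomycin library held a slightly higher Col1a1 level, 4938 CPM (4892 to 4983), than the MyoFB-like ones (4547 to 4682). They held fewer UMIs per cell, with a median of 5334.5 against 8411.5. By Col1a1 UMIs per cell the order was the reverse, with 45959 in 1226 MatrixFB-like and 17867 in 274 MyoFB-like cells. For Col3a1 the MyoFB-like level was 5730 against 5248 CPM and 4620 against 5075 CPM, with log2 ratios of 0.13 and -0.14. Sfrp1+ cells exceeded MyoFB-like cells in Col3a1 in both libraries, where the log2 ratio of MyoFB-like over Sfrp1+ cells was -0.40 and -0.44. Of the members tested in that comparison 1 of 6 (Col5a3, 2.98% of genes) and 2 of 7 (Col5a3 and Col11a1, 4.6% of genes) reached 1, where Col11a1 passed the UMI filter only through the MyoFB-like cells (117 against 1 UMI).

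Col5a3 was the member whose log2 ratio between MyoFB-like and other FBs exceeded 1 in both experiments. It measured 121 CPM (104 to 139) against 34.1 CPM after a single dose and 198 CPM (184 to 212) against 55.7 CPM after repetitive doses, with log2 ratios of 1.80 and 1.81. It was the 1 member of 6 tested that reached 1 in the single-dose library (2.5% of genes). In the repetitive library Col5a1 (1.03) and Col11a1 (4.57) reached it too, which made 3 of 7 (3.92% of genes), but Col11a1 passed the UMI filter only through the MyoFB-like cells (117 UMIs against 16 in all other FBs). The UMIs were uneven among cells: 43 of 101 single-dose and 122 of 274 repetitive MyoFB-like cells had any Col5a3 UMI, and the highest cell held 51 of 191 and 195 of 766 UMIs. Its level was higher still in the 56 smooth muscle-like cells of the repetitive bleomycin library, 313 CPM (267 to 365), where 5 cells held 86.4% of 162 UMIs. Groups of under 20 cells also held Col5a3 after bleomycin, with 69 UMIs in 18 single-dose smooth muscle-like cells and 110 UMIs in 19 repetitive cycling FBs. Without cycling, smooth muscle-like and mesothelial-like FBs, the median log2 ratio of the 7 members over PBS was 1.82 (single-dose) and 1.77 (repetitive).

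Col11a1 was found in very few lung FBs. Of its 133 UMIs in repetitive bleomycin FBs, 117 were in MyoFB-like cells (30.2 CPM, against 0.31 CPM in the other FBs). Those 117 UMIs came from 10 of 274 cells, with 47 in the highest cell and 94.0% in the highest 5. In the single-dose bleomycin library 9 of its 12 UMIs were in a single smooth muscle-like cell and 1 was in a MyoFB-like cell. The level of a group thus rested on very few cells, whose mice of origin are not known.

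How much of the total each subset supplied depended on both its cell number and its level. LipoFB-like cells made up 82.8% and 85.1% of FBs after PBS and held 68.2% and 76.4% of the members' summed UMIs. After bleomycin they made up 24.3% and 39.1% of FBs and held 12.9% and 30.6%. Sfrp1+ cells supplied most in the single-dose bleomycin library, with 29.7% of member UMIs in 23.3% of FBs. In the repetitive bleomycin library MatrixFB-like cells supplied 24.9% of member UMIs and 30% of Col1a1 in 24.6% of FBs. MyoFB-like cells held 20.2% and 8.92% of member UMIs, but 39.1% and 21.2% of Col5a3, in 12.9% and 5.49% of FBs. Subset shares rest on the gate limits, within 20% of which 11.9% and 15.1% of bleomycin FBs lay for the LipoFB-like gate.

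The mixture of chains also differed between groups. A transcript is counted once at its 3′ end, so counts were not divided by length, and ratios between genes are compared only across groups. The Col1a1 to Col1a2 count ratio was 0.73 after PBS and 0.81 after bleomycin (single-dose, intervals 0.70 to 0.75 and 0.80 to 0.82) and 0.61 and 0.78 (repetitive). Within LipoFB-like cells it was 0.77 and 0.73, then 0.63 and 0.71, and within MatrixFB-like cells 0.63 and 0.78, then 0.57 and 0.83. After bleomycin it was higher in MyoFB-like cells, 0.91 and 0.98, than in LipoFB-like, MatrixFB-like and Sfrp1+ cells, and nearer to the 0.94 and 0.96 of the organoid FBs. Smooth muscle-like cells had 0.91 in the repetitive library, and in the single-dose library 2709 Col1a1 and 2509 Col1a2 UMIs in 18 cells. The Col3a1 to Col1a1 ratio over all FBs differed little between PBS and bleomycin (1.65 and 1.71, then 1.77 and 1.81). Within LipoFB-like cells this ratio was 1.67 after PBS and 2.33 after bleomycin (single-dose) and 1.84 and 2.38 (repetitive). Within MatrixFB-like cells it was 1.39 and 2.11, then 1.43 and 1.35. Among bleomycin FBs it was 2.33 and 2.38 in LipoFB-like cells but 1.18 and 1.00 in MyoFB-like cells, and 1.09 and 0.92 in organoid FBs. It was low in other cells too, with 1.02 in smooth muscle-like and 1.35 in MatrixFB-like cells of the repetitive library, but MatrixFB-like cells of the single-dose bleomycin library had 2.11. Col5a2 to Col5a1 was 1.91 and 2.89 (single-dose), 2.90 and 4.02 (repetitive), and 7.33 and 5.76 (normal and fibrogenic organoids).

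**Figure D4:**
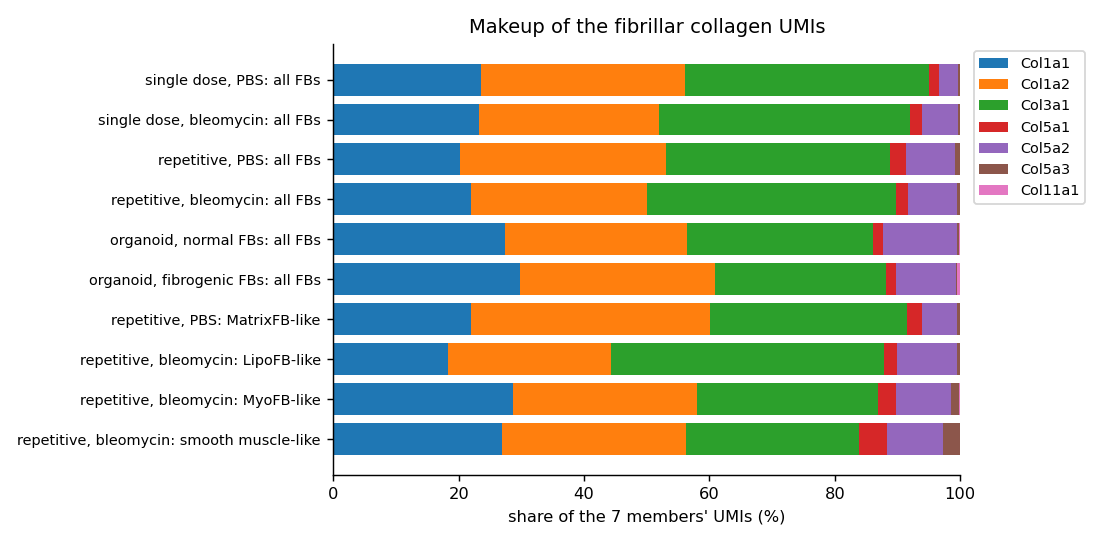
Stacked bars of the share of the members' UMIs that each gene supplied, in percent, for the FBs of 6 libraries and 4 subsets of the repetitive experiment. Over all FBs of a library, Col3a1 supplies 35.7% to 40% in lung and 29.7% and 27.3% in organoids, where Col5a2 supplies 11.8% and 9.49%. These values do not cover the 4 subsets. Of these, the MyoFB-like, smooth muscle-like and PBS MatrixFB-like cells lie below the lung range of Col3a1. LipoFB-like cells after bleomycin lie above it.

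In organoids, FBs from fibrogenic and normal lungs had nearly the same levels of Col1a1, Col1a2, Col3a1 and Col5a1 after 2 weeks of culture. The summed level of the 7 members was 10737 CPM (normal) and 10557 CPM (fibrogenic). This was below the 13317 CPM (single-dose) and 12701 CPM (repetitive) of bleomycin lung FBs. It was above the 3645 and 3424 CPM of PBS lung FBs. Lung and organoid libraries differ in cell handling and depth and are set side by side only. Col1a1 measured 2935 and 3146 CPM (log2 ratio 0.10), Col1a2 measured 3122 and 3281 CPM (0.07), and Col3a1 measured 3189 and 2880 CPM (-0.15). Col5a1 was at 173 and 174 CPM. Col5a2 (1272 and 1002 CPM) and Col5a3 (23.4 and 18.8 CPM) had log2 ratios of -0.34 and -0.30, and 6.71% and 8.54% of the genes tested had a lower one. At this depth counting intervals exclude 0 for 6 of the 7 ratios, Col5a1 being the exception, but the share of all genes for which they do is not given. With 1 library per condition such small differences cannot be set against the spread between cultures. As a mean over cells the ratio of Col1a2 was -0.15 and that of Col5a1 -0.02, and over all barcodes that of Col3a1 was 0.15.

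Col11a1 stood apart, at 23.2 CPM (22.3 to 24.1) in normal and 54.9 CPM (53.8 to 56.1) in fibrogenic organoid FBs. The log2 ratio was 1.21, and 99.9% of 17943 genes tested had a lower one. It was the 1 member of 7 with a log2 ratio of 1 or more, as were 0.234% of genes, and the median of the 7 members was 0.00 against -0.01 for all genes. Unlike in lung, its UMIs were spread over many cells, 482 of 2085 normal and 1286 of 3131 fibrogenic FBs, and the highest cell held 2.02% and 1.97% of them. After thinning to 2000 UMIs, 3.88% and 8.05% of FBs had a Col11a1 UMI. Over all lung FBs of a library Col11a1 was at most 2.42 CPM, while the MyoFB-like cells of the repetitive bleomycin library, at 30.2 CPM, lay between the organoid groups. With an added 10 CPM in place of 1, the log2 ratio was 0.97. Cycling FBs held 15.4% and 14.4% of its UMIs, and smooth muscle and mural markers summed to 102 and 149.7 CPM in the 2 groups of FBs. Without cycling FBs and without FBs that passed a smooth muscle and mural marker gate, the log2 ratio was 1.27.

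AEC2-, AEC1- and PATS-like cells of the organoids held 0.68% to 2.69% of the collagen I and III levels of the FBs beside them. In AEC2-like cells Col1a1 measured 21.6 CPM (normal) and 46.6 CPM (fibrogenic), 0.74% and 1.48% of the FB level. The 6 comparison genes of FBs spanned a wide range in the same cells. Postn stood at 0.73% and 1.48% of its FB level, Serping1 at 1.16% and 1.47%, Mmp2, a gelatinase, at 1.45% and 2.03%, and Pcolce at 3.82% and 4.45%. Sparc (7.42% and 8.10%) and Timp2 (34.9% and 22.4%) stood higher. PATS-like cells carry markers of the transitional state between AEC2 and AEC1 (Krt8, Cldn4, Sfn). In them Col1a1 was at 2.69% (2.48 to 2.91) and 2.53% (2.35 to 2.72), Mmp2 at 1.37% and 2.14%, and Serping1 at 1.93% and 2.29%. Pcolce (3.54% and 4.84%), Sparc (20.7% and 16.6%) and Timp2 (107% and 87.9%) stood higher than Col1a1 there. Of the PATS-like Col1a1 UMIs in normal organoids 16.5% were in 1 cell, and of Col1a2 and Col3a1 UMIs 47.5% and 55.6%. In fibrogenic organoids the highest PATS-like cell held 20.1% of Col1a1, 25.9% of Col1a2 and 14.1% of Col3a1 UMIs. After thinning, 86.3% and 68.9% of epithelial cells had no UMI of any member. Across all epithelial cells, 0 of 7 members had a log2 ratio of 1 or more between fibrogenic and normal organoids (0.163% of genes), with a median of 0.69 against 0.04 for all genes. At these low levels the added 1 CPM shrinks the ratio: the plain folds were 2.13 for Col5a1 (log2 interval 0.80 to 1.39) and 4.19 for Col11a1 (1.23 to 2.98, from 51 and 16 UMIs). Barcodes below the UMI minimum in the fibrogenic organoid library held Col1a1 at 68.2% of the FB level, against 20.8% in the normal one, and the part of free RNA in the epithelial difference was not tested.

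**Figure D5:**
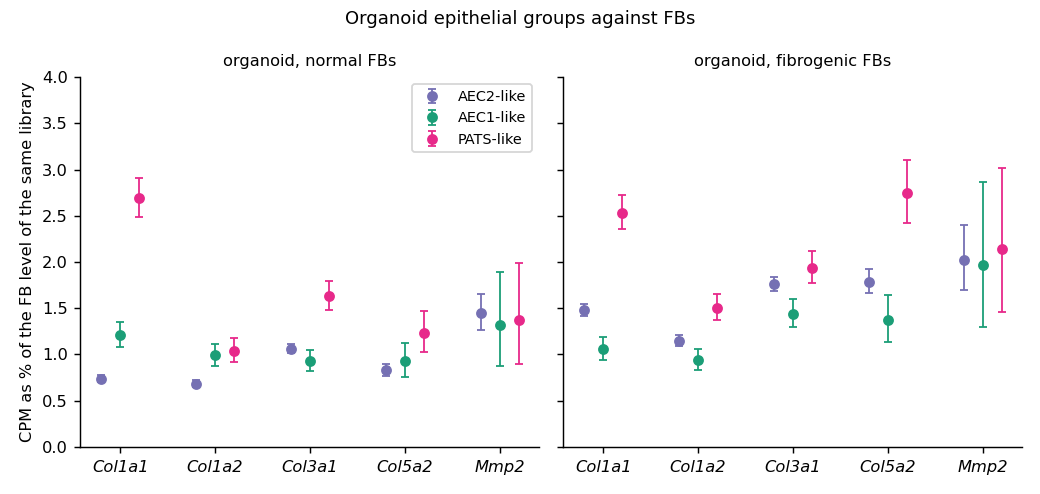
Level of Col1a1, Col1a2, Col3a1, Col5a2 and Mmp2 in AEC2-like, AEC1-like and PATS-like cells as a percent of the level in the FBs of the same organoid library, with 95% counting intervals. Values lie between 0.68% and 2.75%, and Col1a1 is higher in PATS-like than in AEC2-like and AEC1-like cells of both libraries. Mmp2 is the only comparison gene drawn. Of those not drawn, Pcolce, Sparc and Timp2 stood above this range, while Serping1, and Postn in AEC2-like cells, stood within it.

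The genes that make, process and remove collagen were examined as lists. Of 15 tested genes for hydroxylation, glycosylation and folding, 7 had a log2 ratio of 1 or more in single-dose FBs, P4ha3 among them only through its bleomycin UMIs, and 4 of 16 did in repetitive FBs (medians 0.83 and 0.60), beside the 9.57% and 5.72% of all genes. P4ha3, a catalytic subunit of prolyl 4-hydroxylase, had the highest ratio, from 0.85 to 54.1 CPM (5 and 557 UMIs, log2 ratio 4.90) and from 1.03 to 24.9 CPM (3.67). Serpinh1, which encodes the collagen chaperone HSP47, was abundant and differed less, at 904 and 1601 CPM (0.83) and 495 and 1020 CPM (1.04). Colgalt2, a collagen galactosyltransferase, was the lowest in both, at 12.1 and 0.97 CPM (-2.73) and 29.4 and 5.20 CPM (-2.29), while its paralog Colgalt1 measured 53.0 and 112 CPM (1.07) and 65.4 and 96.8 CPM (0.56).

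Procollagen processing genes split. Bmp1, the C-proteinase that cleaves fibrillar procollagens, measured 19.2 and 96.1 CPM (2.27) and 19.3 and 80.0 CPM (2.00). Pcolce2, an enhancer of that cleavage, was lower after bleomycin, at 2117 and 476 CPM (-2.15) and 1916 and 780 CPM (-1.30), and the related Pcolce measured 703 and 480 CPM (-0.55) and 374 and 380 CPM (0.02). In all, 3 of 5 and 3 of 8 tested members of this list reached a log2 ratio of 1, beside 9.57% and 5.72% of all genes, with Adamts14 (2 and 34 UMIs, named after its values were seen) counted in the first only through its bleomycin UMIs. Among the lysyl oxidases, which crosslink fibrils, 3 of 5 and 2 of 5 did, against the same shares. Loxl3 led the single-dose list (1.84), where Loxl1 was lowest (0.59), and Loxl2 the repetitive one (1.37). Lox itself measured 162 and 401 CPM (1.30) after a single dose but 199 and 234 CPM (0.23) after repetitive doses.

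Genes of collagen breakdown were higher after bleomycin as well. All 6 tested members in the single-dose and 4 of 7 in the repetitive FBs had a log2 ratio of 1 or more (medians 1.5 and 1.23), where 9.57% and 5.72% of all genes did, shares that hold for each list named next. Mmp8, a collagenase, was highest in the former (3.02) and Ctsk, the lysosomal collagenase cathepsin K, in the latter, at 22.7 and 182 CPM (2.95). Mrc2, the receptor that takes up collagen fragments, was lowest in both (1.06 and 0.41). Of the collagen receptors 2 of 6 and 2 of 7 reached 1, led by Itga1 in both (2.23 and 2.36), with Ddr2 (0.17) and Itga10 (-0.09) lowest. Of the other fibrillar chains Col24a1, which is normally a gene of bone, was highest, at 1 and 50 UMIs (2.32) and at 0.59 and 17.4 CPM (3.54), while Col27a1 (0.82) and Col11a2 (0.19) were lowest and 1 of 2 and 1 of 3 tested reached 1. The single-dose count was Col24a1 alone, which passed the UMI filter only through the bleomycin FBs. The same holds for Mmp8, and for Fap and Itga2, which are named here for that reason after their values were seen (13, 5 and 3 UMIs after PBS). Fibril-associated collagens reached 1 in 3 of 3 and 3 of 6 tested, with Col12a1 (1.99) and Col14a1 (1.35) highest and Col14a1 (1.13) and Col20a1 (-0.24) lowest.

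Between organoid FBs the 7 lists held 53 tested genes, of which 1 had a log2 ratio of 1 or more and 1 had -1 or less, beside 0.234% and 0.725% of all genes. Tll1, a C-proteinase related to Bmp1, measured 2.09 CPM in normal and 10.7 CPM in fibrogenic FBs (1.92), and Col27a1 15.2 and 6.27 CPM (-1.16). In the other lists the highest and lowest were Plod2 (0.60) and P4ha3 (-0.54) for modification, Loxl4 (0.49) and Loxl1 (-0.01) for crosslinking, Mmp13 (0.68) and Mmp2 (-0.60) for turnover, Ddr1 (0.43) and Itga2 (-0.65) for receptors, and Col14a1 (0.75) and Col16a1 (-0.35) for fibril-associated collagens. In processing Adamts3 was lowest (-0.53), and among other fibrillar chains Col11a2 was highest (0.06).

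Over 25 cell groups of the lung libraries, by the Pearson correlation of log2(CPM + 1) among 11628 genes, members were often most like each other, as Col1a1 was like Col1a2 (0.99), Col3a1 and Col5a1. With the 7 members left out, the genes most like each were Fmod (0.98), Fstl1 and Fbn1 for Col1a1, Mfap5 (0.97), Fmod and Fbn1 for Col1a2, Mfap5 (0.98), Mgp and Fbn1 for Col3a1, Fstl1 (0.98), Fbn1 and Pdgfrb for Col5a1, and Fbn1 (0.98), Fstl1 and Eln for Col5a2. Col5a3 differed, with Pmepa1 (0.94), Prrx1 and Pi15. These groups include leukocytes and other cells without matrix genes, they share libraries, and Fstl1 was one of the FB gate markers. Over the 18 FB groups alone, a choice made after seeing the data, the gene outside the members most like Col1a1 and Col1a2 was Bmp1 (0.93 and 0.94), and the next were Loxl2 and Sdc1, and Ccdc80 and Mlec. For Col3a1 they were Sparc (0.90), Dtx4 and Slfn8, for Col5a1 Pxdn (0.95), Ahr and Tmem263, for Col5a2 Fat1 (0.94), Col4a1 and Il13ra1, and for Col5a3 Fhdc1 (0.92), Pls3 and Pxdn. Col1a1 and Col1a2 correlated at 0.98 over these FB groups and Col3a1 and Col5a3 at 0.38. Col11a1 had too few UMIs for this comparison.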

How the data were processed

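Droplet single-cell RNA was measured in 6 libraries, 1 per condition, each with FBs pooled from 3 mice. The authors aligned and counted reads with Cell Ranger 3.0.1 (and clustered them with Seurat 3) on mm10/GRCm38 and deposited raw counts of unique molecular identifiers (UMIs) per gene and barcode, which were used here without change.

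Counts were read with Python 3.11.15, numpy 2.4.6, scipy 1.17.1 and pandas 2.3.3. Barcodes under 2000 UMIs or above 3 median absolute deviations in mitochondrial share were removed. FBs and other lineages were gated at 10 marker UMIs (myeloid 20) per 10000. No doublet caller was run, and barcodes with markers of 2 lineages were removed. FB subsets needed 20 (MyoFB-like), 40 (MatrixFB-like), 5 (Sfrp1+) or 60 (LipoFB-like) marker UMIs per 10000, taken in that order. Mesothelial-like, smooth muscle-like and cycling FBs, at 10 marker UMIs per 10000, were set apart before them. These stayed in the group of all other FBs with which MyoFB-like cells were compared. In organoids the limits were 50 (AEC1-like, PATS-like) and 200 (AEC2-like). Summed UMIs were scaled to 1000000 (CPM), and log2 ratios with a pseudocount of 1 CPM were computed for genes with at least 20 UMIs. Exact 95% Poisson and Clopper-Pearson intervals cover counting error only, and 3 UMIs served as the floor for a count of 0. No p-value was computed. Ratios and intervals were tested on simulated data.

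The members, gene lists and gates were chosen with earlier results of these data known. Genes named were the 7 members, the highest and lowest of each of 7 pathway lists in each comparison, and the 3 genes outside the 7 members most correlated with each member. The comparison genes for organoid epithelial cells (Pcolce, Mmp2, Sparc, Postn, Serping1 and Timp2) were a separate list outside this rule. Serpinh1, Colgalt1, Pcolce and single-dose Lox were added after their values were seen. Of the 10 alternative settings for the medians and 12 for the counts, the effects are given in the closing section. Gene positions came from GENCODE vM21 and promoters from RefSeq (GRCm38.p6).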

Additional observations from a re-analysis of the deposited data

How the results depend on the processing

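No paired analysis was possible because there was 1 library per condition, and for the same reason no replicate could be left out. The log2 ratios of the members kept their sign in 70 of 70 values in the single-dose and 70 of 70 in the repetitive comparison. In the organoid comparison 67 of 70 did, and Col1a2 (-0.15) and Col5a1 (-0.02) turned as a mean over cells and Col3a1 (0.15) over all barcodes. The median of the 7 members in the single-dose FBs was 1.91 and became 1.84 with a pseudocount of 10 CPM, 1.82 when centred on the median gene, 1.95 over all barcodes, 1.82 without cycling, smooth muscle-like and mesothelial-like FBs, and 1.86 as a mean over cells. In the repetitive FBs the median of 1.75, which is the value of Col11a1, became 1.69 with no UMI minimum, 1.80 with a minimum of 4000 UMIs, 1.72 without the mitochondrial filter, 1.69 with barcodes of 2 lineages kept, 1.66 with a pseudocount of 10 CPM, 1.65 when centred, 1.63 over all barcodes, 1.77 without the same FB groups, 1.79 as a mean over cells, 1.80 with CPM computed without members and mitochondrial genes, and 1.77 without Col11a1. The organoid median of 0.00 became 0.036 with barcodes of 2 lineages kept and 0.30 over all barcodes, and turned to -0.15 as a mean over cells and -0.072 without Col11a1. The count of members with a log2 ratio of 1 or more moved from 6 to 7 in the single-dose FBs with no minimum of UMIs per gene, and from 7 to 6 in the repetitive FBs with a pseudocount of 10 CPM or, by construction, without Col11a1. The count of organoid members with a log2 ratio of 1 or more was 0 with a pseudocount of 10 CPM and, by construction, 0 without Col11a1. All other alternatives left these counts as they were. The causes of the other shifts were not tested. Leaving out Col11a1 was chosen after seeing the data. With the gate limits doubled, 10 of 12 Col1a1 levels of FB subsets moved beyond their counting intervals, for example from 3565 to 4490 CPM in single-dose bleomycin Sfrp1+ cells. Shares of cells with a UMI differed from the thinned ones in 39 of 42 cases without thinning. The single-dose libraries, the shallowest, limit what can be said of Col11a1 and Col5a3.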
